A study of Mus musculus with 10 samples.

Results

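Genes of developmental regulation, 6 in number, were followed through 10 mouse T cell lymphomas: Eya1, Eya2, Eya3, Six4, Dach1 and Alx4. They were found by gene symbol among 19937 genes with a probe set that names 1 gene. All 6 were measured, each by a single probe set, and 4 of them (Eya1, Eya2, Eya3 and Alx4) lay above the filter on dim probe sets that left 12670 genes for testing. The genes were chosen by the measured levels of Eya1 and Alx4, which differ between tumours with much and little Cd2 transcript, and the others as relatives of these. Values along that division are therefore given as a description, with no test. Sequences are not printed, because of the 6 genes the RefSeq promoter table used here lists Eya3, Six4 and Dach1 only. Their levels overlap between tumours with much and little Cd2 transcript.

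The tumours were primary mediastinal T cell lymphomas from NPM-ALK transgenic mice on the C57BL/6 background, 1 microarray per mouse. All 10 mice carried NPM-ALK, the oncogenic kinase of a class of human T cell lymphoma, and developed T cell lymphoma at 4 to 5 months of age. WASP, an activator of actin assembly in blood cells that is encoded by the X-linked gene Was, was intact in 5 mice. The other 5 lacked WASP, and the series counts homozygous females and hemizygous males among its WASP-deficient mice without giving the sex of single animals. Xist, the RNA of the silenced X chromosome in female cells, was at 4.503 to 5.58 (log2 intensity) on all 5 WASP-deficient arrays. On the WASP-intact arrays it was at 4.40 on array 3 and at 11.52 to 11.90 on the other 4. Genotype and Xist level can therefore hardly be told apart in these tumours. The labels do not name the promoter that drives NPM-ALK, and no tissue without the transgene was used here. In whole tumours, fewer cells of a type and less RNA per cell cannot be told apart.

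Eya proteins are transcriptional co-activators that also carry a phosphatase domain. They have no DNA-binding domain of their own and are brought to DNA by homeodomain proteins such as Six4, while Dach proteins act in the same network mostly as co-repressors, and Pax factors stand upstream in many organs. The network builds muscle, kidney, inner ear and the thymus, whose primordium fails to form in mice without Eya1. Alx4 is a paired-type homeodomain factor of limb and skull mesenchyme that can bind the Wnt effector Lef1.

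Array medians lay between 116.7 and 122.7 on the deposited linear scale, and the number of arrays limits the precision. All levels below are log2 of the deposited intensity, and a level is compared between arrays only, not between probe sets. Was was at 9.25, 9.12, 9.11, 9.34 and 9.27 on WASP-intact arrays 1 to 5 and at 8.20, 8.17, 7.92, 8.14 and 7.96 on WASP-deficient arrays 1 to 5. The groups did not overlap, and the difference was -1.14 (SE 0.084, limma adjusted p = 0.00088, Benjamini-Hochberg). Of the T cell markers 10 of 13 measured lay above the filter level of 6.35 on all arrays. Cd3e, a chain of the T cell receptor complex, lay between 12.06 and 12.59. In whole tumours this count is no check of the labelled cell type. On all arrays 11 of 12 macrophage and 11 of 13 fibroblast and stroma markers lay above that level too. Other T cell genes were lower on some arrays, Cd3d down to 5.26 and Cd3g down to 6.29, as given with the marker lists at the end. Cd2, an adhesion receptor of T cells, divided the arrays. The Cd2-high arrays, with Cd2 at 11.18, 11.30 and 11.52, were numbers 4 and 5 of the WASP-intact and number 1 of the WASP-deficient tumours, and the 7 Cd2-low arrays had 6.10 to 6.90. No array lay near the dividing level of 9. These sets are not groups of the study, and the Cd2-high set holds 2 WASP-intact tumours and 1 WASP-deficient tumour.

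Eya1, the co-activator needed for early thymus formation, showed the widest range of the 6 genes. Among the Cd2-high arrays, WASP-intact 4 had 12.18, WASP-intact 5 had 12.06 and WASP-deficient 1 had 11.88. The Cd2-low WASP-intact arrays 1, 2 and 3 had 7.70, 6.59 and 5.54, and the Cd2-low WASP-deficient arrays 2 to 5 had 6.68, 6.43, 6.34 and 5.53. The 3 Cd2-high arrays thus lay far above all others and within 0.30 log2 units of each other, whereas the 7 Cd2-low arrays spread over 2.17. The nearest arrays of the sets were 4.18 log2 units apart, an 18.1-fold gap, between WASP-deficient array 1 and WASP-intact array 1. On 3 of the Cd2-low arrays Eya1 was below the filter level, and no detection call was used here, so how much Eya1 transcript those tumours hold is not settled by these values. Over its 10 arrays Eya1 ranged over 6.65 log2 units, and only 4 of the 19937 genes ranged further.

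Eya2, a close relative of Eya1, was higher on the same arrays by a smaller amount. Its level was 9.21 on WASP-intact array 4, 9.15 on WASP-intact array 5 and 8.60 on WASP-deficient array 1, the Cd2-high arrays. The Cd2-low levels were 7.25, 7.02 and 6.999 on WASP-intact arrays 1 to 3 and 7.44, 7.24, 7.17 and 6.83 on WASP-deficient arrays 2 to 5. The sets did not overlap, and their nearest arrays were 1.16 log2 units apart, a 2.23-fold gap. WASP-deficient array 1 was the lowest of the Cd2-high arrays for both Eya1 and Eya2, and without it the Eya2 gap was 1.71. Every Eya2 level lay above the filter.

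Eya3, the most widely expressed of these Eya genes, hardly varied. Its level was 10.16, 10.18, 10.17, 10.01 and 10.04 on WASP-intact arrays 1 to 5. It was 10.14, 10.22, 10.01, 10.09 and 10.30 on WASP-deficient arrays 1 to 5. Cd2-high and Cd2-low arrays overlapped, and the whole range of 0.29 was smaller than that of 94.1% of all genes. The 3 Eya genes therefore had a wide, a moderate and a narrow spread over the same tumours.

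Six4 and Dach1, a homeodomain partner of Eya proteins and a co-repressor of the network, were dim on all 10 arrays. Six4 lay between 5.26 on WASP-intact array 2 and 5.98 on WASP-intact array 4, and Dach1 between 5.34 on WASP-intact array 4 and 5.68 on WASP-intact array 3. Both stayed under the filter level of 6.35 throughout, so neither was tested over all genes. Six4 was at 5.98, 5.63 and 5.90 on the Cd2-high arrays and at 5.26 to 5.80 on the Cd2-low arrays, and the sets overlapped through WASP-intact array 5. Without that array they did not overlap, by 0.11, at levels too near the dim end to be ordered. Dach1 was at 5.34, 5.45 and 5.44 on the Cd2-high arrays, inside or just under the Cd2-low span of 5.37 to 5.68.

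Alx4, the homeodomain factor, ran opposite to Eya1. Among the Cd2-high arrays, WASP-intact 4 had 6.71, WASP-intact 5 had 6.98 and WASP-deficient 1 had 7.11. Cd2-low WASP-intact arrays 1 to 3 had 10.37, 10.43 and 11.08, and Cd2-low WASP-deficient arrays 2 to 5 had 10.27, 10.28, 11.56 and 11.43. The sets did not overlap, and the nearest arrays, WASP-deficient 1 and WASP-deficient 2, differed by -3.15 log2 units (Cd2-high minus Cd2-low), an 8.88-fold gap. Even the lowest Alx4 level lay above the filter. The range of 4.84 was exceeded by 43 of the 19937 genes.

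**Figure D1:**
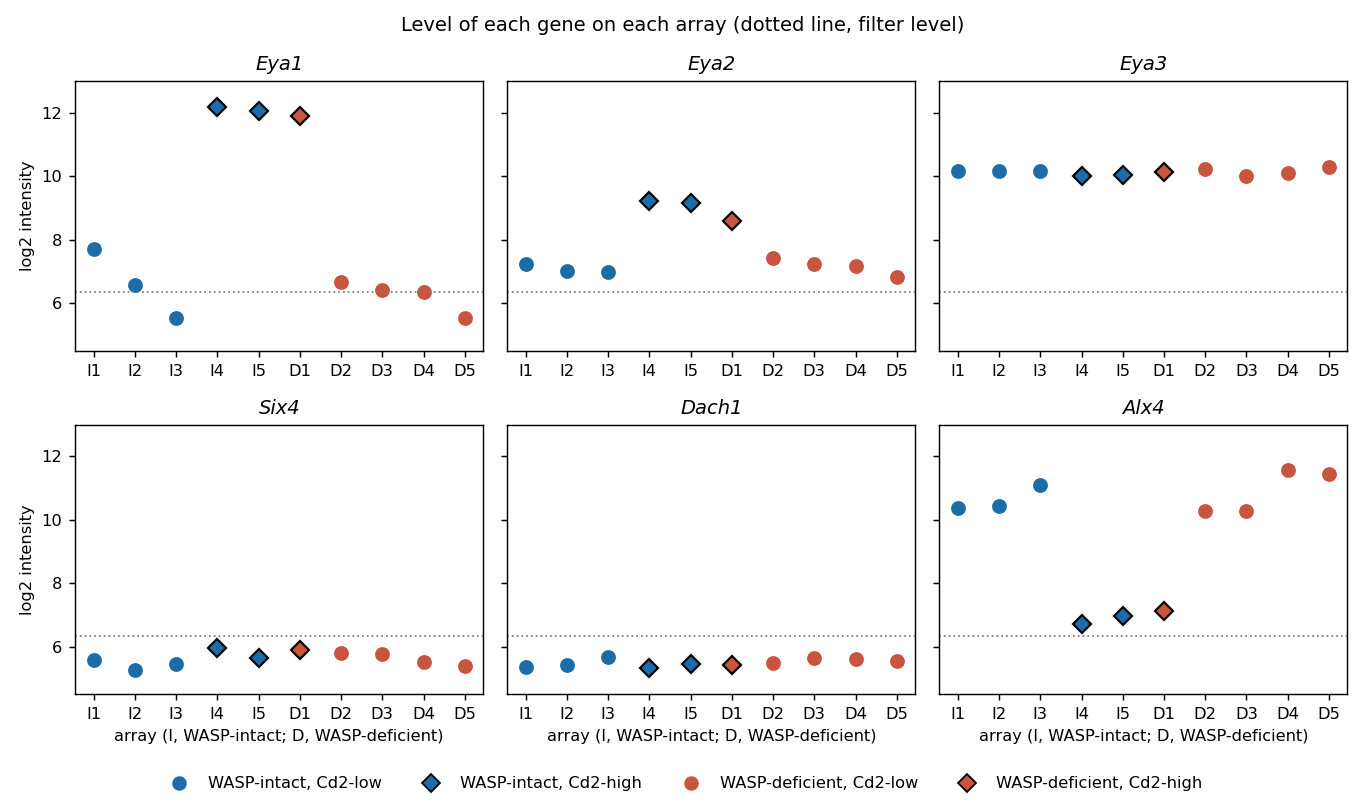
Log2 intensity (y axis) of the 6 genes on each of the 10 arrays (x axis, I for WASP-intact and D for WASP-deficient, with the replicate number). Diamonds mark the 3 Cd2-high arrays, where Eya1 sits at 11.88 to 12.18 and Alx4 at 6.71 to 7.11, and the dotted line is the filter level of 6.35.

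Of the 6 genes, Eya1 and Eya2 were higher on all 3 Cd2-high arrays than on any Cd2-low array, and Alx4 was lower. Over all 19937 genes, 10.6% were higher in this way and 11.2% lower, so 21.7% did not overlap in either direction. A division without overlap was therefore common in these tumours. Gaps of at least 1 log2 unit were found for 1.18% of all genes upward and 0.662% downward, 1.84% together, and Eya1, Eya2 and Alx4 were among them. Of all genes, 8 had a larger upward gap than Eya1 and 196 a larger one than Eya2, while 4 had a larger downward gap than Alx4. The members were chosen along this division, and the shares are given to place their size.

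**Figure D2:**
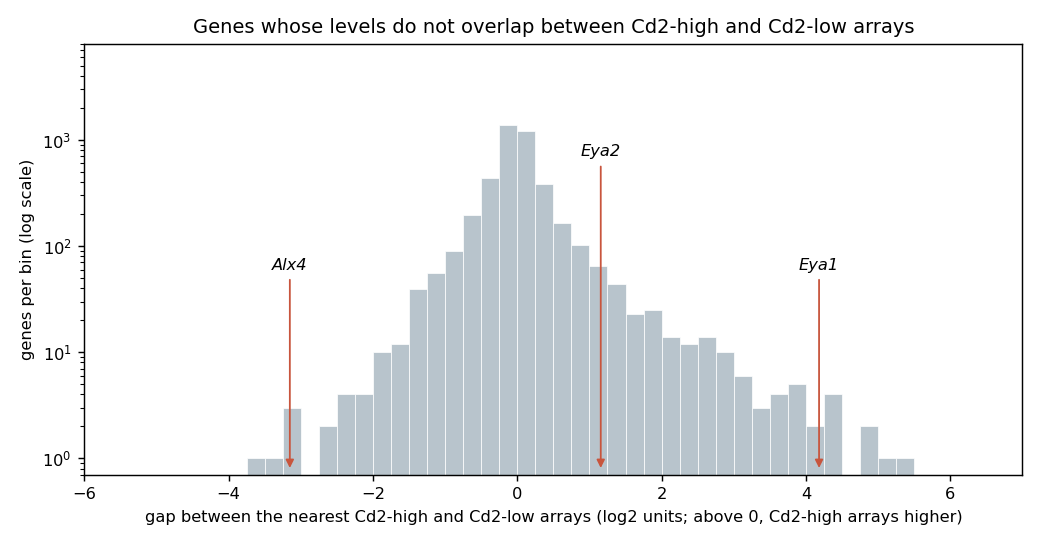
Number of genes (y axis, log scale) by the gap between the nearest Cd2-high and Cd2-low arrays (x axis, log2 units) for the genes whose levels do not overlap. Eya1 at 4.18 and Alx4 at -3.15 lie in the thin tails, and Eya2 at 1.16 lies in the upper shoulder.

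Loss of WASP gave no difference that passed the test in any of these genes. Of 12670 genes tested, 0.00789% passed, a single gene, which was Was itself, and 366 had an unadjusted p under 0.05 (2.89%). Eya1 was at 8.82 ± 3.11 in WASP-intact and 7.37 ± 2.56 in WASP-deficient lymphomas (SD, n = 5 each). Its difference, WASP-deficient minus WASP-intact, was -1.44 (SE 1.59, limma adjusted p = 0.999, unadjusted exact two-sided permutation p = 0.3333). Alx4 was at 9.11 ± 2.09 and 10.13 ± 1.79 (SD, n = 5 each), a difference of 1.01 (SE 1.09, limma adjusted p = 0.999, unadjusted exact permutation p = 0.3333). Eya2 differed by -0.47 (SE 0.53) and Eya3 by 0.04 (SE 0.078), both with a limma adjusted p of 0.999. In each of the 6 genes the genotypes overlapped.

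The intervals show how little the comparison could settle for the genes with a wide spread. The 95% interval from limma ran from -4.97 to 2.09 for Eya1, from -1.64 to 0.71 for Eya2 and from -1.40 to 3.43 for Alx4, in log2 units. For Eya3 it ran from -0.13 to 0.22. Six4 and Dach1 differed by 0.10 and 0.09 (unadjusted exact permutation p = 0.5000 and 0.2381), at levels under the filter. Groups of 5 cannot give an exact p below 0.007937.

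**Figure D3:**
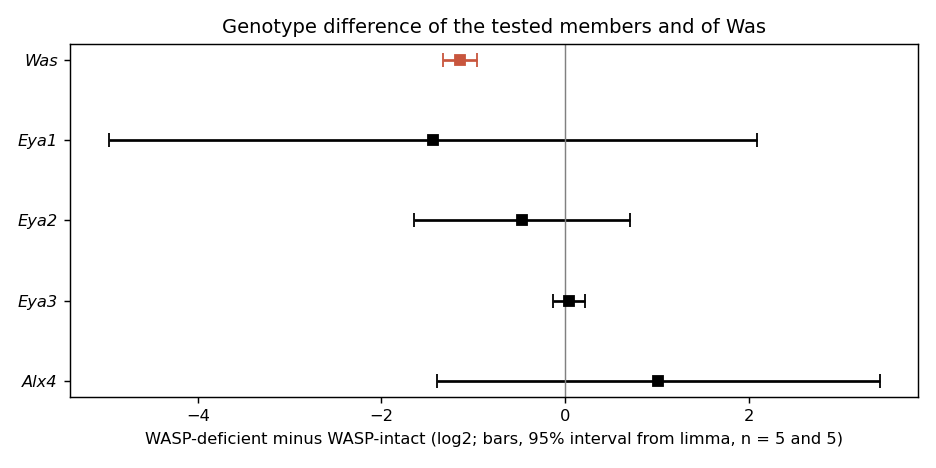
Difference between genotypes (x axis, log2, WASP-deficient minus WASP-intact, n = 5 each) with its 95% limma interval for the 4 members above the filter and for Was. The interval of Was, from -1.33 to -0.95, leaves out 0, and those of Eya1, Eya2, Eya3 and Alx4 include it.

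With Cd2 accounted for, the differences stayed short of the threshold. The standard errors shrank, which follows from choosing Eya1 and Alx4 along the Cd2 division and is no separate result. With the Cd2 level as a covariate the Eya1 difference was -0.48 (SE 0.25), that of Alx4 0.36 (SE 0.20) and that of Eya2 -0.16 (SE 0.14), each with a limma adjusted p of 0.999. Among the 7 Cd2-low arrays, 3 WASP-intact and 4 WASP-deficient, the Eya1 difference was -0.36 (SE 0.46) and the Alx4 difference 0.25 (SE 0.36), again at a limma adjusted p of 0.999. There Eya1 spanned 5.54 to 7.70 in WASP-intact and 5.53 to 6.68 in WASP-deficient tumours, and Alx4 spanned 10.37 to 11.08 and 10.27 to 11.56. Eya2 was at -0.47 over all arrays and at 0.08 (SE 0.15, limma adjusted p = 0.999) among the Cd2-low arrays.

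Within the 7 Cd2-low tumours Alx4 was at 11.08 on WASP-intact array 3 and at 11.56 and 11.43 on WASP-deficient arrays 4 and 5, against 10.27 to 10.43 on the other 4. Eya2 on those 3 arrays was at 6.999, 7.17 and 6.83, inside or under the 7.02 to 7.44 of the other 4. Their relation did not pass: r was -0.62 and rho -0.75 (exact two-sided permutation p = 0.143 and 0.0663, and 0.143 and 0.0796 adjusted over the 6 relations computed among Eya1, Eya2, Alx4 and Cd2). Without WASP-deficient arrays 2 and 5, the farthest from the Eya2 median, r was -0.26. Leaving out both ends of the Eya2 range can lower r by itself, so no conclusion is drawn from that value. None of the other 5 relations passed after adjustment either. They are not given, because 3 Eya1 and 2 Cd2 levels there lay under the filter level, where the order of arrays is not settled. A correlation over all 10 arrays is not given, because the arrays fall into separate clusters.

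**Figure D4:**
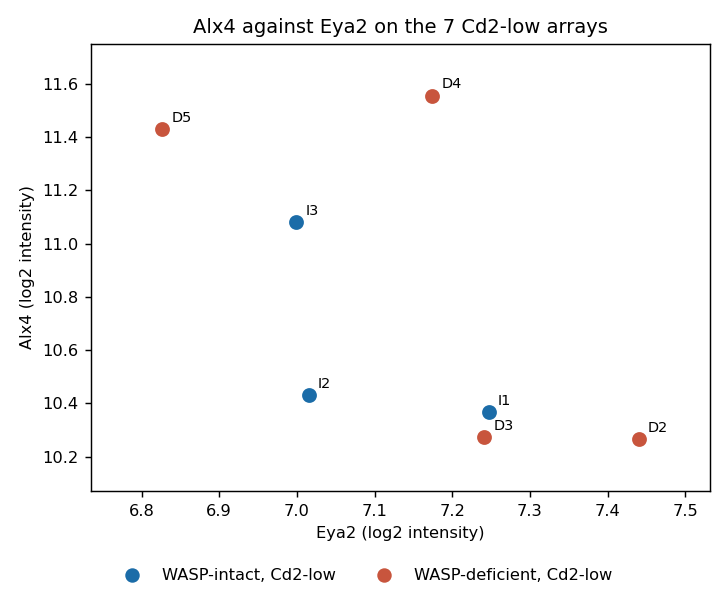
Alx4 (y axis) against Eya2 (x axis), both as log2 intensity, on the 7 Cd2-low arrays (1 point per array, blue WASP-intact and red WASP-deficient). Alx4 is 11.08 to 11.56 on I3, D4 and D5 and 10.27 to 10.43 on the other 4 arrays.

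The genes most like each member in pattern were sought among all genes above the filter, by the mean absolute difference over the 10 arrays after each gene was centred on its own mean. Closest to Eya1 were the T-box gene Tbx19 at 0.42 log2 units and the unnamed transcripts 2700046A07Rik and Gm10384, both at 0.48. Cd2 followed at 0.50 and Snai3, a Snail-family repressor, at 0.54. Eya1 and Alx4 were chosen along the Cd2 division, which sets most of their pattern over the 10 arrays. Closeness of either to Cd2, Cd3d or other genes that divide the arrays widely restates that choice and is no separate result. Tbx19 lay at 11.40 to 11.86 on the Cd2-high arrays and at 5.81 to 6.55 on the Cd2-low arrays. Inside the Cd2-low set, where Eya1 ranged over 2.17 with 3 levels under the filter level, Snai3 ranged from 5.76 to 6.42 and Cd2 from 6.10 to 6.90.

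Closest to Eya2 were the kinase gene Lrrk2 and Lbp, which encodes a lipopolysaccharide-binding protein, both at 0.11 log2 units. Id4, an inhibitor of helix-loop-helix factors, was at 0.12, and Rbms1 and Tnfaip8l2 at 0.13. Closest to Alx4 were Gsta4, a glutathione transferase, at 0.28, Camkv at 0.34 and Cdc42bpa, a kinase that binds Cdc42, at 0.37. The kinase gene Camk1g at 0.39 and Cd3d, a chain of the T cell receptor complex, at 0.42 came next. Gsta4 was at 11.499 and 11.402 on WASP-deficient arrays 4 and 5, where Alx4 was highest too. On WASP-intact array 3 Gsta4 was at 10.08, against 10.48 and 10.37 on WASP-intact arrays 1 and 2, while Alx4 was higher there than on those arrays.

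**Figure D5:**
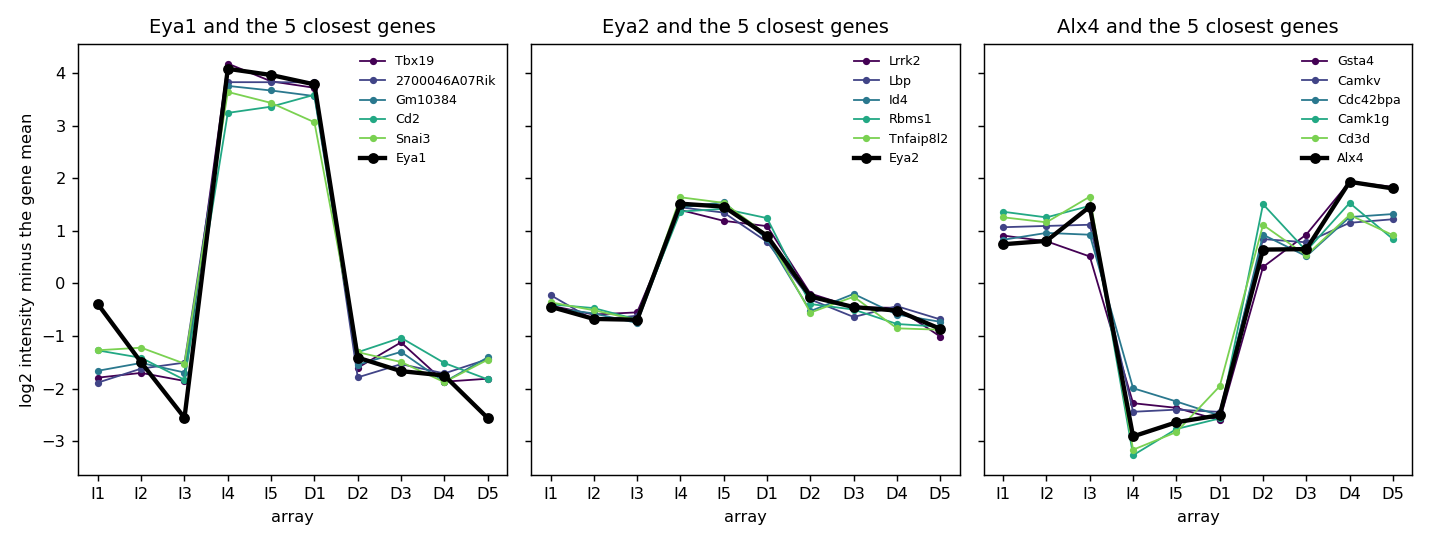
Log2 intensity minus each gene's mean (y axis) over the 10 arrays (x axis) for Eya1, Eya2 and Alx4 (black) and the 5 genes closest to each. Eya1 departs from its closest genes on I1, where it is higher, and on I3 and D5, where it is lower and under the filter level.

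The rest of the network of these genes and their Pax partners was mostly dim and did not follow Eya1. Of 17 listed genes 16 were measured, 6 were above the filter and 0 passed the genotype test in either direction. All 6 had higher values in WASP-deficient tumours, with a median of 0.17 against -0.004 over all genes tested. Most thymic epithelial markers leaned the same way by more, as given with the marker lists at the end. Pax7, a regulator of muscle stem cells, was at 0.34 (SE 0.22), and its highest level, 7.72, was that of WASP-deficient array 4. Pax9 and Pax1, both expressed in the pharyngeal pouches that form the thymus, were at 0.22 (SE 0.11) and 0.14 (SE 0.10), and Six5 at 0.20 (SE 0.18). Eya4 stayed between 5.47 and 6.12 on all arrays. Of the 16 measured, 1 did not overlap between Cd2-high and Cd2-low arrays, which was Six5, at 7.06 to 7.25 against 7.56 to 8.02, where 21.7% of all genes did not overlap.

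Partners and reported targets of these factors were mostly well expressed. Of 18 listed 15 were measured and 12 tested, 5 with higher and 7 with lower values in WASP-deficient tumours, a median of -0.07, and 0 passed in either direction. Skil, a Ski-family co-repressor related to Dach proteins, was at 8.19 to 8.43 on the Cd2-high arrays and at 6.49 to 7.13 on the Cd2-low arrays. Ccnd1, the gene of the G1 cyclin D1, spread over 2.59 log2 units, and its 8.995 to 9.55 on the Cd2-high arrays fell inside the 8.05 to 10.64 of the Cd2-low arrays. Lef1, a partner of Alx4, was at 11.83 to 12.02 on the Cd2-high arrays, just under the 12.20 to 12.52 of the others. Crebbp, a histone acetyltransferase gene, was at -0.22 (SE 0.080, limma adjusted p = 0.999). In this list 3 of 15 measured genes did not overlap between the sets, 1 higher (Skil) and 2 lower (Lef1 and the co-repressor Ski), a share near the 21.7% of all genes.

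Homeobox relatives of Alx4 and genes of thymus organ formation were near the filter level. Of 24 paired-type and distal-less homeobox genes 19 were measured and 7 tested, with a median genotype difference of 0.02. None passed in either direction. Prrx1, a mesenchymal factor related to Alx4, had its highest levels, 7.48 and 7.31, on WASP-intact arrays 4 and 5, and lay between 6.79 and 7.18 on the other 8. Of 13 genes of the third pharyngeal pouch and thymus formation 10 were measured and 5 tested, with a median of 0.04, 0 passing in either direction and 0 not overlapping between the sets. Fgfr2, a growth factor receptor of epithelia, was under the filter and not tested. It was at 5.82 to 6.29 in WASP-intact and at 6.31 to 6.61 in WASP-deficient tumours, a difference of 0.53 at levels near the filter. The share of all genes that separate the genotypes in this way was not computed, so no result is drawn from Fgfr2. Foxn1, the master regulator of thymic epithelium, stayed between 5.47 and 6.08 on all 10 arrays.

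Genes that lie next to the members in the RefSeq gene order of GRCm38.p6, used for order only, were compared on the same arrays. Among 9 measured neighbours of Eya1, up to 5 on each side, the widest range over the arrays was 0.75, for Trpa1. Among 10 neighbours of Alx4 the adjacent heparan sulfate polymerase gene Ext2 was at 9.64 to 9.75 on the Cd2-high arrays and at 10.60 to 11.03 on the Cd2-low arrays, lower on the Cd2-high arrays as Alx4 was. Syt13, at 7.99 to 8.45 against 8.74 to 10.65, and Tspan18, at 6.51 to 6.62 against 6.82 to 7.37, were lower there as well. The other 7, with the adjacent Cd82, overlapped. Near Eya2 the heparan sulfatase gene Sulf2 went the other way, at 7.41 to 7.58 on the Cd2-high arrays and 9.79 to 10.49 on the Cd2-low arrays. Over all 55 measured neighbours of the 6 members, 15 (27.3%) did not overlap between the sets, against 21.7% of all genes.

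Markers of other cell types moved partly with the sets. The sums given here add linear intensities over probe sets, so the brightest markers of a list weigh most. The summed intensity of 12 tested fibroblast and stroma markers was 10260 to 14520 on the Cd2-high arrays and 5591 to 8971 on the Cd2-low arrays, without overlap, and 6 of 13 measured markers did not overlap, all higher, where 10.6% of all genes were higher in this way. Pdgfra, a receptor of fibroblasts, had the widest gap of the list, 0.66, at 7.46 to 7.64 against 5.84 to 6.79. The gaps of others were narrow, 0.054 for Fn1 and 0.001 for Col1a2. Col5a1 overlapped and leaned the other way, at 7.18 to 7.46 against 7.30 to 7.63. The part of stromal cells in the levels of Eya1, Eya2 and Alx4 was not tested. Sums of 10 adipocyte markers overlapped, at 2557 to 5120 against 1896 to 3217.

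Muscle markers, from a tissue that uses this network, were high on a single array. Their summed intensity over 10 tested markers was 7244 on WASP-intact array 4 and 1047 to 1479 on the other 9, with 1479 on WASP-intact array 5 and 1105 on WASP-deficient array 1. Eya1 was at 12.06 and 11.88 on those last arrays, within 0.30 of its 12.18 on WASP-intact array 4. The part of muscle cells in the level of Eya1 was not tested. The muscle regulator Myog stayed between 5.56 and 6.10 on all arrays.

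Thymic epithelial markers had overlapping sums, 1874 to 3318 on the Cd2-high and 2643 to 4568 on the Cd2-low arrays over 13 tested markers. Of 15 measured, 3 did not overlap between the sets, a share near the 21.7% of all genes. Krt18, a keratin of simple epithelia, was at 7.07 to 8.54 on the Cd2-high and 9.48 to 10.18 on the Cd2-low arrays, and Aire, the autoimmune regulator of medullary epithelium, at 6.61 to 6.83 against 7.08 to 8.02. The chemokine gene Ccl25 was at 8.18 to 8.42 against 7.78 to 8.09. Psmb11, a proteasome subunit of cortical thymic epithelium, stayed between 6.16 and 6.44. By genotype, 11 of the 13 tested had higher and 2 lower values in WASP-deficient tumours, a median of 0.52, and 0 passed. Krt5 was at 1.31 (SE 0.43) and Krt8 at 1.06 (SE 0.28), each with a limma adjusted p of 0.999. The part of epithelial cells in the Pax1, Pax9 and Six5 values was not tested. Sums of endothelial, macrophage and B cell markers also overlapped, at 2997 to 3424 against 2497 to 3543, 8300 to 10280 against 6848 to 12040, and 768.3 to 1077 against 528.4 to 1063.

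T cell marker sums lay between 20500 and 26730 over all arrays and overlapped. Of 13 markers 5 did not overlap between the sets, where 21.7% of all genes did not. On the Cd2-high arrays 2 were higher and 3 lower, where 10.6% and 11.2% of all genes were. Higher were Cd2, which defined the sets, and the kinase gene Zap70, by 0.063. Cd3d was at 5.26 to 6.47 on the Cd2-high and 8.96 to 10.08 on the Cd2-low arrays. Cd3g, another chain of the complex, was at 6.29 to 10.24 against 11.45 to 12.23, and Ptcra, the pre-T cell receptor chain, at 7.91 to 9.88 against 10.87 to 11.41.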

How the data were processed

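The members and gene lists were chosen with earlier results of these data known. The authors deposited probe set intensity values made with RMA, per the submitters' processing notes, which means background correction, quantile normalization over arrays and probe summary. No version, genome build or annotation is named in those notes. The values ran from 3.309 to 15588, a linear scale, so log2 was taken first. The labels call the replicates biological, and no batch is labelled.

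Gene names came from the annotation table of the platform. Of 34760, 21640 had 1 symbol, 1321 several, and 11799 were not listed. Gene IDs matched RefSeq genes of GRCm38.p6 for 21553, and 0 symbols changed. The probe set with the highest mean stood for each gene, and means under the 40th percentile (log2 6.35) were left out of tests. Such a filter keeps a gene that is bright in few tumours. RMA levels at the dim end are compressed, which understates folds against them.

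Genotypes were compared with limma 3.58.1 in R 4.3.3 (lmFit, eBayes, no covariate), adjusted by Benjamini-Hochberg over 12670 genes with a threshold of 0.05, and with exact two-sided permutation tests over 252 assignments. The fit was tested on simulated data. Named genes were the members, Was, Cd2, the 5 closest genes of each member with a range of at least 2 log2 units, and, in each list, up to 4 genes with the largest genotype difference and up to 4 with the largest range. Cd3e, Eya4, Myog, Psmb11, Aire, Ccl25, Zap70, Ski, Pdgfra, Col1a2 and Col5a1 were named after their values were seen. So were the neighbours and the genes named first in the closing section. Alternatives covered the filter, probe set choice, normalization, an offset of 16, array weights, variance prior, covariates, the replicate block and left-out arrays. One listed item is not reported here. Figures were drawn with matplotlib 3.10.9.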

Additional observations from a re-analysis of the deposited data

Results flagged for a closer look

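Eya1 on WASP-deficient array 1, at 11.88, stood far from the other 4 WASP-deficient arrays, which lay between 5.53 and 6.68. It is the Cd2-high array of that genotype, and Eya1 was chosen along the Cd2 division, so this restates the choice and is no separate evidence.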

How the results depend on the processing

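Under 21 alternatives none of Eya1, Eya2, Eya3 and Alx4 passed the genotype test (limma adjusted p from 0.659 to 1 for Eya1 and Alx4, from 0.672 to 1 for Eya2 and from 0.879 to 1 for Eya3), and 0 genes of the pathway lists passed. Six4 and Dach1 were tested in the fit with no filter alone and did not pass (limma adjusted p = 0.999 each). The Xist level nearly repeats the genotype, at 11.52 to 11.90 on 4 of 5 WASP-intact arrays and at 4.503 to 5.58 on all WASP-deficient arrays. With it as covariate the sign turned for Eya1 (1.29), Eya2 (0.33), Eya3 (-0.017), Dach1 (-0.097) and Alx4 (-0.68). It turned for Eya2 with array weights (0.10) and, without the Cd2-high arrays, for Eya2 (0.083) and Eya3 (-0.011). Of all genes, 0 passed with the replicate block or the Xist covariate, 2 without the Cd2-high arrays (Was and Ybx3), and 1 to 4 when single arrays were left out, the 4 without WASP-intact array 3. Was was -1.14 with the replicate block (limma adjusted p = 0.136) and -1.06 with the Xist covariate (limma adjusted p = 0.378). The causes were not tested. Genes with an unadjusted p under 0.05 numbered from 187 to 888 (888 without WASP-deficient array 1, 205 without WASP-intact array 4 and 234 without WASP-intact array 5). Same-numbered arrays deviated together for 2 of 5 numbers only (r from -0.71 to 0.37), and 1 of 10 arrays correlated best with its own number. The r values below 0 were those of numbers 1, 4 and 5, where only 1 of the arrays is Cd2-high. That division can turn r negative by itself, so the check cannot settle pairing. The labels name no pairs, and the numbers are not taken as pairs. Dividing the arrays at a Cd2 level of 8 or 10 gave the same sets, and 3 or 4 members did not overlap under 14 alternatives, with Six4 the addition without WASP-intact array 5. The Eya1 gap lay between 4.18 and 5.20, that of Alx4 between -3.29 and -3.15, and that of Eya2 between 1.14 and 1.71. Levels of Six4 and Dach1, and of Eya1 on 3 arrays, are too near the dim end to be ordered.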

Other observations

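The 8 genes with a larger upward gap than Eya1 between Cd2-low and Cd2-high arrays were Cd2, Sytl2, Tbx19, Lonrf1, Igf2, Snai3, Gm10384 and 2700046A07Rik. Igf2, a fetal growth factor, was at 12.22 to 12.35 on the Cd2-high and 6.63 to 7.85 on the Cd2-low arrays. Sytl2, which encodes a Rab27-binding protein of vesicle traffic, was at 11.70 to 12.27 against 5.35 to 6.58. The 4 genes with a larger downward gap than Alx4 were Rnd2, Macroh2a2, Camk1g and Camkv.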
